A study of Drosophila melanogaster with 9 samples.

Results

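The glutathione S-transferase (GST) family of Drosophila melanogaster was followed in whole wandering third-instar larvae reared at 3 densities. Its members were chosen by name, as the genes whose symbol is Gst followed by the class letter D, E, O, S, T or Z and a number, and 35 of the 17759 genes in the deposited table met this rule. The delta class (D) had 11 members, epsilon (E) 14, theta (T) 4, omega (O) 3, zeta (Z) 2 and sigma (S) 1. The low group was reared at 5 eggs per ml, the medium group at 60 eggs per ml and the high group at 300 eggs per ml, with 3 libraries per group. All groups ate the same sugar and yeast food, and each library came from the RNA of 10 whole larvae pooled. The labels name no strain, genotype, sex or hour of collection, and do not say whether the 3 pools of a density came from separate cultures, so the p-values measure the spread between these pools, which may be technical. The study asked how larval overcrowding shows in the transcriptome, and the comparisons below ask which GST genes and classes differed between densities.

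Cytosolic GSTs join the tripeptide glutathione to electrophilic compounds, among them insecticides, plant toxins and the aldehydes left by lipid peroxidation, so that these can be exported from the cell. The delta and epsilon classes are specific to insects and related arthropods and are best known for insecticide resistance, while the omega, sigma, theta and zeta classes also occur in vertebrates. In larvae, GST genes are known to be expressed in the midgut, fat body and Malpighian tubules, and several respond to the transcription factor CncC, the fly homologue of Nrf2, which Keap1 holds back in unstressed cells.

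The delta and epsilon genes lie largely in 2 tandem arrays of the Release 6 genome. All 11 delta genes lie on chromosome 3R between 12364776 and 12385624, in the order GstD10, GstD9, GstD1 and then GstD2 to GstD8 and GstD11. GstE10 and GstE1 to GstE9 lie side by side on 2R between 18396638 and 18409835. The other epsilon genes stand apart on 2R, GstE11 at 18503608 to 18505025, GstE12 at 24766718 to 24768172, GstE13 at 9122125 to 9123309 and GstE14 at 13239729 to 13241013. Of the 35 genes, 16 consist of a single exon, namely GstD2 to GstD8 and GstE1 to GstE9. Fractional counts, which mark read pairs that also map elsewhere, occurred in 4 members in 1 library each (GstT4, GstS1, GstO2 and GstZ2), so reads were rarely divided between these genes and their relatives.

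Between genes, levels were compared in TPM, which divides each count by the gene's exon length and scales each library to the same total. GstD1, an enzyme able to remove hydrogen chloride from DDT, had the highest level of the family, with a mean of 744 TPM over the 9 libraries. GstO3 followed at 324 TPM, GstE3 at 285 TPM, GstS1 at 168 TPM and GstE12 at 139 TPM, and these 5 genes held 71.1% of the family's summed TPM. GstT1 averaged 89.7 TPM, GstT4 85.9 TPM and GstT3 59.2 TPM, and the 10 highest genes held 85.2%. At the other end 14 members averaged under 10 TPM, and 4 of them (GstE10, GstD6, GstD11 and GstE4) averaged under 1 TPM. GstE4 had 0 to 5 counts and GstD11 had 1 to 5 counts per library, and these 2 genes were the only members not tested, which left 33.

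Library totals ranged from 16822606 counts in high replicate 2 to 25141308 in high replicate 3, where a gene at 3 counts lies at 0.178 and 0.119 CPM, the count scaled to the library total. Across the tested GST genes, the median SD of log2 CPM between pools was 0.16 at low, 0.25 at medium and 0.32 at high density, against 0.13, 0.15 and 0.23 over all genes. The mitochondrial large ribosomal RNA took from 6.27% to 11.4% of the counts of a library. The roX RNAs, which mark male cells, summed to between 345 and 792 CPM in the low, 137 and 423 CPM in the medium and 361 and 612 CPM in the high libraries, so the mix of sexes may differ between pools. High replicate 3 stood apart from the other high libraries in several members, and values without it are given where a call depends on it. Because these are whole larvae, fewer cells of a type and less RNA per cell cannot be told apart.

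The summed level of the GST family was lower at high density, but not every member was. Of the 33 tested genes, 22 had a log2 fold change below 0 and 11 above 0 in high against low. In high against medium 17 were below 0 and 16 above. The family's summed CPM, scaled here by library totals and TMM factors, was 1801, 1820 and 1787 in the low libraries. It was 1894, 1688 and 1672 in the medium libraries and 1374, 1288 and 1178 in the high libraries. Every high library lay below every other library, by a ratio of means of 1.41 against low and 1.37 against medium. The low and medium ranges overlapped with these factors. Without TMM factors, the family held 0.175% to 0.184% of a library's counts at low and 0.153% to 0.172% at medium density. At high density it held 0.133% to 0.147%, so none of the groups overlapped on that scale.

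The epsilon class had the largest difference of the 6 classes, and most of it came from GstE3. Its summed level was 411, 541 and 471 CPM at low, 502, 467 and 368 CPM at medium and 244, 218 and 169 CPM at high density, a mean 2.26 times lower at high than at low density. The high libraries did not overlap the others. Without GstE3 the epsilon sum averaged 250.9 CPM in the low and 177 CPM in the high libraries, 1.41 times lower. The ratio of the low to the high mean was 1.20 for the delta, 1.29 for the omega, 1.31 for the sigma and 1.34 for the theta class, and for each of them the high and low libraries did not overlap. For the delta, omega and theta classes the difference lay mainly in 1 gene. Without GstD1, which did not pass in this comparison, the mean delta sum was 41.4 CPM in the low and 45.9 CPM in the high libraries, and without GstO3 the omega sum averaged 84.4 and 88.1 CPM. Without GstT3 the theta sum averaged 145 and 134 CPM, and the libraries overlapped in all 3 of these remainders. The genes left out here were chosen after their values were seen. The zeta class alone had a higher mean at high density, with 67.9 to 74.0 CPM at low and 74.0 to 80.3 CPM at high density, and the 2 ranges overlapped at their ends. These directions between high and low were the same with each scaling tried.

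**Figure D1:**
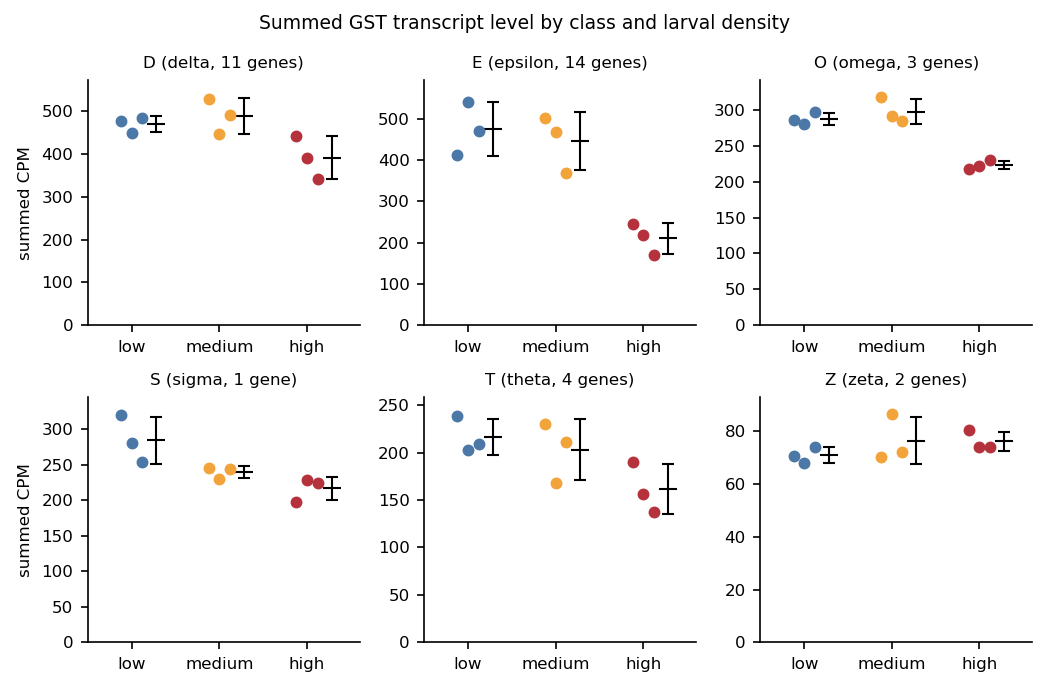
Summed CPM (vertical axis, from 0) of each GST class in every library by larval density (horizontal axis). Coloured points are libraries and black marks are the mean and SD of 3; the epsilon class averaged 474 CPM in the low and 210.3 CPM in the high libraries, and the zeta class lay between 67.9 and 86.6 CPM in all libraries.

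As a share of the family's TPM, the epsilon class made up 30.2% ± 4.2 (SD, n = 3) at low, 28.1% ± 4.22 at medium and 17.1% ± 2.02 at high density. The delta class made up 32.5% ± 1.84 at low, 34.6% ± 2.53 at medium and 40.2% ± 1.51 at high density. The delta share of TPM was thus larger at high density, although the delta sum in TMM-scaled CPM, another measure, was smaller. The zeta share was 2.15% ± 0.14 at low, 2.33% ± 0.30 at medium and 3.30% ± 0.20 at high density. Shares of 1 total are tied to each other, and no test was made on them.

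Comparing the extremes of density, the edgeR quasi-likelihood test over all 12883 tested genes called 9 of the 33 GST genes at a Benjamini-Hochberg adjusted p under 0.05, or 27.3%, where 15.2% of all tested genes were called. Of these, 8 were lower at high density (24.2%, against 11% of all tested genes) and 1 was higher (3.03%, against 4.18%). The lower ones were GstE3, GstE8, GstE9, GstT1, GstT2, GstT3, GstO3 and GstS1, and the higher one was GstD7. The median log2 fold change of the 33 genes was -0.20, beside 0.06 over all tested genes. The CPM of the high and low libraries did not overlap in 15 of the 33 genes (45.5%), beside 33% of all tested genes. With library totals alone in place of TMM factors, 2 GST genes were called higher and 6 lower, with 19.7% of all tested genes called. With only the 2 groups compared in the fit 6 were called, with 7.67% of all, and GstS1, GstT2 and GstD7 were lost. Between 5 and 9 GST genes were called when single libraries were left out, the lowest number without high replicate 2 (7.59% of all tested genes), and 8 without high replicate 3 (21.2% of all).

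**Figure D2:**
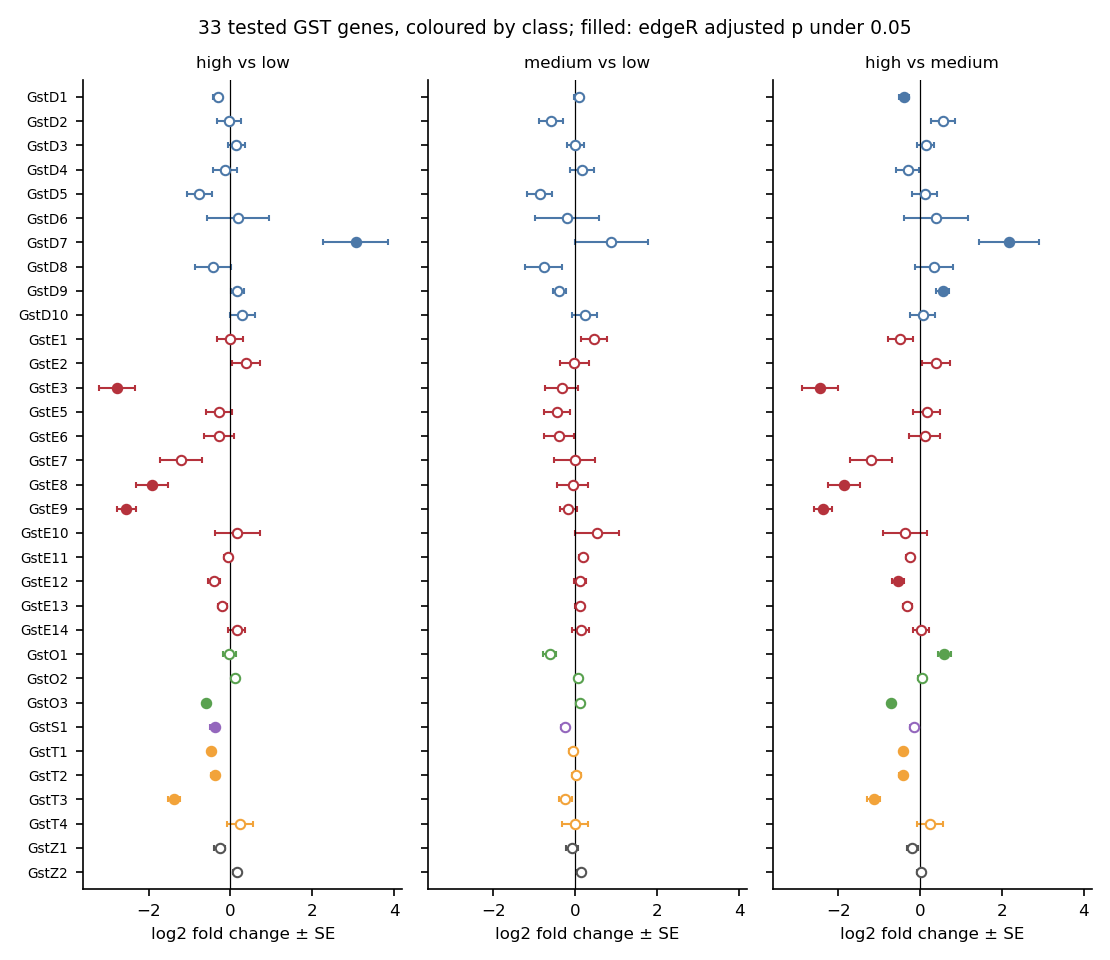
Log2 fold change with its SE (horizontal axis) for the 33 tested GST genes (vertical axis, coloured by class) in the 3 comparisons of densities. Filled points passed an edgeR adjusted p of 0.05; they number 9 in high against low, 0 in medium against low and 12 in high against medium.

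Marker genes of tissues also moved between these densities. Their counts are to be read beside the 11% of all tested genes that fell and the 4.18% that rose. Of 12 midgut markers 6 fell and 2 rose at high against low density, and their summed CPM ran from 2270 to 2718 at low and from 1726 to 2398 at high density. Of 7 fat body markers 2 fell (Fbp1 and Fbp2) and none rose, with sums of 60150 to 63662 CPM at low and 41475 to 65445 CPM at high density. None of the 5 Malpighian tubule markers that matched a symbol passed, and their sum was 33.8 to 46.9 CPM at low and 39.5 to 90.9 CPM at high density. Of 10 muscle markers 3 rose, with sums of 3867 to 5278 CPM at low and 5397 to 14022 CPM at high density. Of 8 salivary gland markers 3 fell and 3 rose, and their sum was 38616 to 44272 CPM at low and 18534 to 31347 CPM at high density. None of 6 hemocyte markers and 1 of 6 prothoracic gland markers passed. No marker was at 0 in all libraries, and the part of these tissues in the GST results was not tested.

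Within the epsilon array, 3 of 9 tested genes fell at high density against both other densities. Over all tested genes, 11% fell against low and 18.3% against medium. The 3 genes were GstE3 near the start of the array and GstE8 and GstE9 at its end. GstE3 (2R, 18400713 to 18401467, plus strand), the most abundant epsilon gene, measured 167, 286 and 217 CPM in the low libraries, 197, 236 and 100.2 CPM in the medium libraries and 37.1, 44.7 and 16.6 CPM in the high libraries. All 3 high libraries lay below the others, with high replicate 3 the lowest and medium replicate 3 the lowest of its group. GstE3 fell by 2.77 ± 0.44 (SE) on the log2 scale from low to high density, a 6.82-fold difference (edgeR adjusted p 0.00599). From medium to high density it fell by 2.44 ± 0.43 (edgeR adjusted p 0.00664).

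GstE9 (2R, 18409048 to 18409835, plus strand), the last gene of the array, showed the smallest spread of the 3. It measured 11.6, 9.72 and 10.7 CPM at low, 9.28, 9.48 and 9.79 CPM at medium and 1.31, 2.55 and 1.70 CPM at high density. The low and medium ranges overlapped, and each high library was below all others. GstE9 fell by 2.54 ± 0.22 on the log2 scale from low to high density (5.81-fold, edgeR adjusted p 0.00125) and by 2.37 ± 0.22 from medium to high density (edgeR adjusted p 0.0012).

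GstE8 (2R, 18407834 to 18408955, plus strand) lies next to GstE9. It measured 18.7, 25.0 and 14.8 CPM at low, 20.2, 9.25 and 26.6 CPM at medium and 5.99, 3.54 and 5.83 CPM at high density. Medium replicate 2 was low for its group but still above every high library. GstE8 fell by 1.92 ± 0.39 on the log2 scale from low to high density (edgeR adjusted p 0.015), and the adjusted p was 0.0547 without low replicate 2 and 0.0589 without high replicate 2. From medium to high density it fell by 1.86 ± 0.39 (edgeR adjusted p 0.0103).

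The neighbour on the other side, GstE7, did not pass the test and is described because of its place, after its values were seen. GstE7, known for activity on isothiocyanates and lipid aldehydes, measured 17.9, 27.1 and 28.8 CPM at low and 32.0, 28.3 and 12.98 CPM at medium density. At high density it measured 14.4, 14.1 and 3.64 CPM, below the low libraries but overlapping the medium ones. The log2 fold change between high and low was -1.21 ± 0.51 (edgeR adjusted p 0.155).

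The remaining tested genes of the array were GstE1, GstE2, GstE5, GstE6 and GstE10, none of which passed in any comparison. Their log2 fold changes between high and low density lay between -0.28 and 0.37. GstE1, which codes for an enzyme known to act on isothiocyanates, measured 14.99, 11.3 and 9.07 CPM at low and 13.3, 7.96 and 13.7 CPM at high density, so the groups overlapped. The sum of the 10 genes of the array was 239, 369 and 293 CPM at low, 285, 301 and 178 CPM at medium and 83.8, 82.6 and 46.9 CPM at high density.

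**Figure D3:**
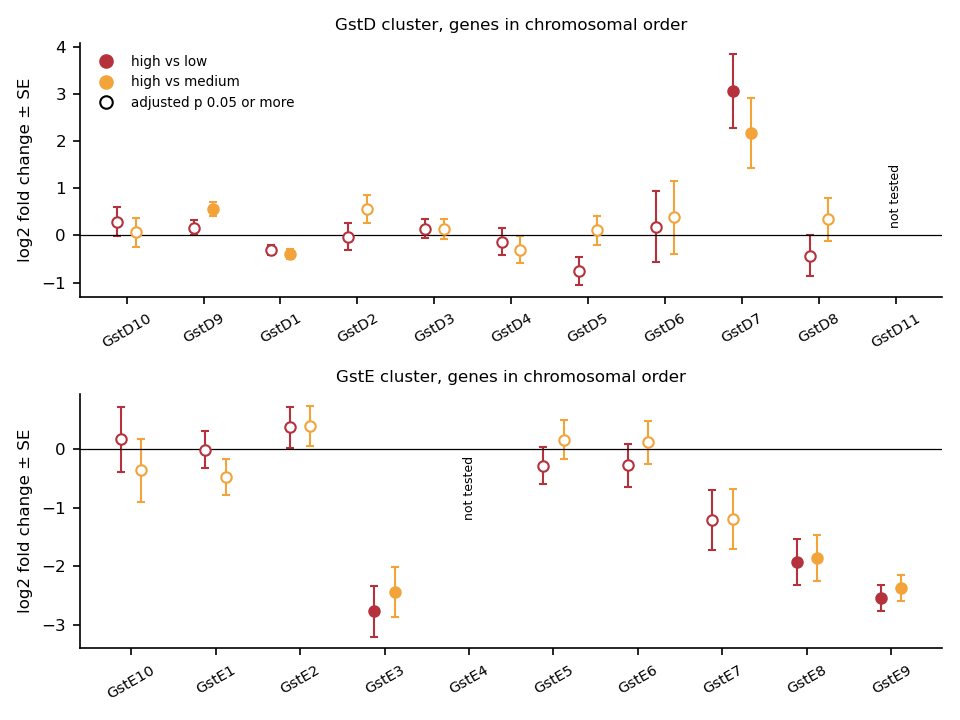
Log2 fold change with its SE (vertical axis) for the genes of the delta and epsilon arrays in chromosomal order (horizontal axis, not to scale), for high against low and high against medium density. Filled points passed an edgeR adjusted p of 0.05; in the epsilon array the lowest values are those of GstE3 (-2.77) and GstE9 (-2.54) against low, and in the delta array GstD7 stands highest (3.06).

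The 4 epsilon genes outside the array varied less. GstE12 measured 132, 135 and 135 CPM at low, 171, 122 and 147 CPM at medium and 121, 95.3 and 86.6 CPM at high density. Each high library lay below all low and medium libraries. Between high and low density the log2 fold change was -0.41 ± 0.15 and did not pass (edgeR adjusted p 0.098), although it passed without high replicate 1 (edgeR adjusted p 0.0329). From medium to high density GstE12 fell by 0.54 ± 0.15 (edgeR adjusted p 0.021), a call that needed each of medium replicates 1 and 3 and high replicates 2 and 3 (adjusted p 0.0523 to 0.0742 without them).

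GstE14, also called noppera-bo, acts in the prothoracic gland in the synthesis of the moulting hormone ecdysone. It measured 4.87, 4.78 and 5.78 CPM at low, 6.25, 5.81 and 4.79 CPM at medium and 5.32, 7.18 and 4.63 CPM at high density. All 3 groups overlapped, and the log2 fold change between high and low was 0.15 ± 0.20 (edgeR adjusted p 0.632). GstE11 and GstE13 had log2 fold changes of -0.05 ± 0.10 and -0.20 ± 0.11 in the same comparison and did not pass. Between high and medium they had -0.24 ± 0.10 (edgeR adjusted p 0.0771) and -0.31 ± 0.11 (edgeR adjusted p 0.0526). Neither passed there, but GstE13 was called by DESeq2 and with the replicate block.

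In the theta class, 3 of 4 genes fell at high density against both other densities, where 11% of all tested genes fell against low and 18.3% against medium. GstT3 (X, 20467455 to 20469796, plus strand) measured 80.7, 67.9 and 67.7 CPM at low, 71.1, 48.7 and 63.7 CPM at medium and 27.3, 25.1 and 31.2 CPM at high density. The high libraries were close together and far below the rest. GstT3 fell by 1.37 ± 0.15 on the log2 scale from low to high density (2.59-fold, edgeR adjusted p 0.00212) and by 1.13 ± 0.15 from medium to high density (edgeR adjusted p 0.00266).

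GstT1 and GstT2 stand next to each other on 2R between 9605988 and 9608350, both on the plus strand. GstT1 measured 70.5, 62.0 and 63.4 CPM at low, 62.1, 62.6 and 62.5 CPM at medium and 47.2, 42.6 and 50.8 CPM at high density. The medium libraries were nearly equal, and the high libraries lay below both groups. GstT1 fell by 0.48 ± 0.08 on the log2 scale from low to high (edgeR adjusted p 0.00746) and by 0.41 ± 0.08 from medium to high density (edgeR adjusted p 0.00864).

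GstT2 measured 15.9, 13.5 and 16.1 CPM at low, 15.6, 15.4 and 15.5 CPM at medium and 11.7, 12.3 and 10.9 CPM at high density. Again no high library reached the others. GstT2 fell by 0.38 ± 0.10 from low to high density on the log2 scale (edgeR adjusted p 0.0378), but this call was lost without any 1 library other than low replicate 2 (adjusted p 0.0568 to 0.134). The call was lost in 15 of 20 alternative settings, among them library totals alone, upper-quartile factors, RLE factors and only the 2 groups compared. From medium to high density GstT2 fell by 0.41 ± 0.10 (edgeR adjusted p 0.0149), which did not pass without medium replicate 1 (adjusted p 0.0507). Nor did it pass with upper-quartile factors, library totals alone or the roX level as a covariate.

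GstT4, on the X chromosome at 13404749 to 13409323, did not pass in any comparison. It measured 71.3, 59.3 and 61.4 CPM at low, 81.1, 41.0 and 69.7 CPM at medium and 104.2, 76.5 and 45.0 CPM at high density. High replicate 1 was the highest and high replicate 3 among the lowest of the 9 libraries, so the groups overlapped. The log2 fold change between high and low was 0.23 ± 0.32 (edgeR adjusted p 0.639).

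The 3 omega genes lie together on 3L between 8518885 and 8524866, beside sepia, an omega-type enzyme of the red eye pigments that the naming rule leaves out. GstO3 (8518885 to 8520295, plus strand) measured 202, 193 and 215 CPM at low, 239, 217 and 209.9 CPM at medium and 130.2, 135 and 141 CPM at high density. The high libraries formed a tight group below all others. GstO3 fell by 0.59 ± 0.08 on the log2 scale from low to high (1.5-fold, edgeR adjusted p 0.00317) and by 0.71 ± 0.08 from medium to high density (edgeR adjusted p 0.00165).

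GstO1, a thiol transferase of the same class, had a different pattern. It measured 29.5, 35.7 and 30.3 CPM at low, 19.4, 24.9 and 17.7 CPM at medium and 27.8, 30.2 and 35.6 CPM at high density. The medium libraries lay below all others, while low and high overlapped. GstO1 rose by 0.59 ± 0.15 on the log2 scale from medium to high density (edgeR adjusted p 0.0174), a call lost without medium replicate 1 or medium replicate 3 (adjusted p 0.0606 to 0.064). Between high and low the log2 fold change was -0.03 ± 0.15 (edgeR adjusted p 0.918).

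GstO2, whose summed exons overlap those of sepia on the opposite strand by 61 bases, measured 53.9, 52.0 and 51.8 CPM at low, 59.02, 49.2 and 57.5 CPM at medium and 60.5, 56.6 and 53.7 CPM at high density. The 3 groups overlapped, and the log2 fold change between high and low was 0.11 ± 0.08 (edgeR adjusted p 0.383). With library totals alone GstO2 was called higher at high density, by 0.26 against low (edgeR adjusted p 0.0296) and by 0.29 against medium (edgeR adjusted p 0.0109). The omega genes thus held 1 gene that fell against both densities, 1 that rose against medium density alone and 1 that did not pass.

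GstS1 (2R, 17093246 to 17099501, minus strand), the only sigma gene, is abundant in flight muscle of the adult fly and conjugates the lipid aldehyde 4-hydroxynonenal. It measured 319, 279.7 and 254 CPM at low, 245, 229.6 and 244 CPM at medium and 198, 228 and 225 CPM at high density. The ranges of the 3 groups did not overlap, although the highest medium library lay close to the lowest low library, and the order of medium and high turned with library totals alone. GstS1 fell by 0.39 ± 0.10 on the log2 scale from low to high density (edgeR adjusted p 0.0329), a call lost without low replicate 1, low replicate 2, medium replicate 1, medium replicate 3, high replicate 1 or high replicate 2 (adjusted p 0.0553 to 0.112). Scaling by upper quartiles (edgeR adjusted p 0.0773) or by library totals alone (edgeR adjusted p 0.169) also ended this call. The other 2 differences did not pass, with log2 fold changes of -0.25 ± 0.10 for medium against low (edgeR adjusted p 0.169) and -0.14 ± 0.10 for high against medium (edgeR adjusted p 0.28). The muscle marker sum given above was 3867 to 5278 CPM at low and 5397 to 14022 CPM at high density. The part of muscle in the GstS1 values was not tested.

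Among the delta genes, GstD1 (3R, 12367817 to 12369268, minus strand) is the usual reporter of Keap1 and CncC activity. It measured 440.2, 399.9 and 443 CPM at low, 487, 412 and 459 CPM at medium and 393, 343 and 301 CPM at high density. No high library reached the low or medium ones, although high replicate 1 came close to low replicate 2. Between high and low the log2 fold change was -0.31 ± 0.11 and did not pass (edgeR adjusted p 0.103), while without high replicate 1 it did (edgeR adjusted p 0.0398). From medium to high density GstD1 fell by 0.39 ± 0.11 (edgeR adjusted p 0.0252), a call that needed the same 4 libraries as that of GstE12 (adjusted p 0.0578 to 0.0872 without them).

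GstD7 (3R, 12378500 to 12379255, plus strand) was the only member that rose at high density against both other densities, from very few reads. It had 6, 4 and 4 counts in the low libraries, or 0.26, 0.17 and 0.18 CPM. In the medium libraries it had 5, 10 and 9 counts (0.24, 0.45 and 0.45 CPM), and in the high libraries 26, 72 and 13 counts (1.10, 3.75 and 0.46 CPM). High replicate 3 lay just above the highest medium library, and high replicate 2 held most of the reads. GstD7 rose by 3.06 ± 0.79 on the log2 scale from low to high density (edgeR adjusted p 0.0351) and by 2.17 ± 0.73 from medium to high density (edgeR adjusted p 0.0445). Both calls were lost without any 1 of 7 libraries, those of the low and medium groups and high replicate 2, with adjusted p from 0.052 to 0.113 against low and from 0.0641 to 0.158 against medium.

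GstD9 measured 13.1, 17.2 and 14.3 CPM at low, 13.03, 11.8 and 9.14 CPM at medium and 15.6, 16.3 and 18.01 CPM at high density. As for GstO1, the medium libraries were the lowest, here just below the low libraries. GstD9 rose by 0.56 ± 0.16 on the log2 scale from medium to high density (edgeR adjusted p 0.023), a call that needed medium replicate 3 and high replicates 2 and 3 (adjusted p 0.0525 to 0.0662 without them). Between high and low the log2 fold change was 0.17 ± 0.15 (edgeR adjusted p 0.489).

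GstD3, which codes for a protein lacking the first residues of its relatives, measured 10.9, 15.7 and 14.4 CPM at low, 16.3, 12.03 and 12.6 CPM at medium and 18.9, 12.4 and 13.8 CPM at high density. The groups overlapped, and the log2 fold change between high and low was 0.14 ± 0.21 (edgeR adjusted p 0.661). The other tested delta genes, GstD2, GstD4, GstD5, GstD6, GstD8 and GstD10, passed in no comparison, with log2 fold changes between high and low from -0.76 (GstD5) to 0.29 (GstD10).

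The zeta enzymes isomerise maleylacetoacetate in the breakdown of tyrosine, as known from mammals. The 2 genes lie side by side on 3R between 9455517 and 9460652, both on the minus strand. GstZ2 measured 60.7, 58.9 and 62.7 CPM at low, 59.6, 77.2 and 63.8 CPM at medium and 72.0, 65.0 and 66.3 CPM at high density. The high libraries lay above the low ones, but the log2 fold change was only 0.16 ± 0.10 (edgeR adjusted p 0.319). GstZ1 measured 9.82, 9.05 and 11.3 CPM at low, 10.8, 9.43 and 8.29 CPM at medium and 8.27, 8.95 and 7.84 CPM at high density. Its high libraries lay below the low ones, with a log2 fold change of -0.27 ± 0.14 (edgeR adjusted p 0.24). Neither zeta gene passed in any comparison.

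**Figure D4:**
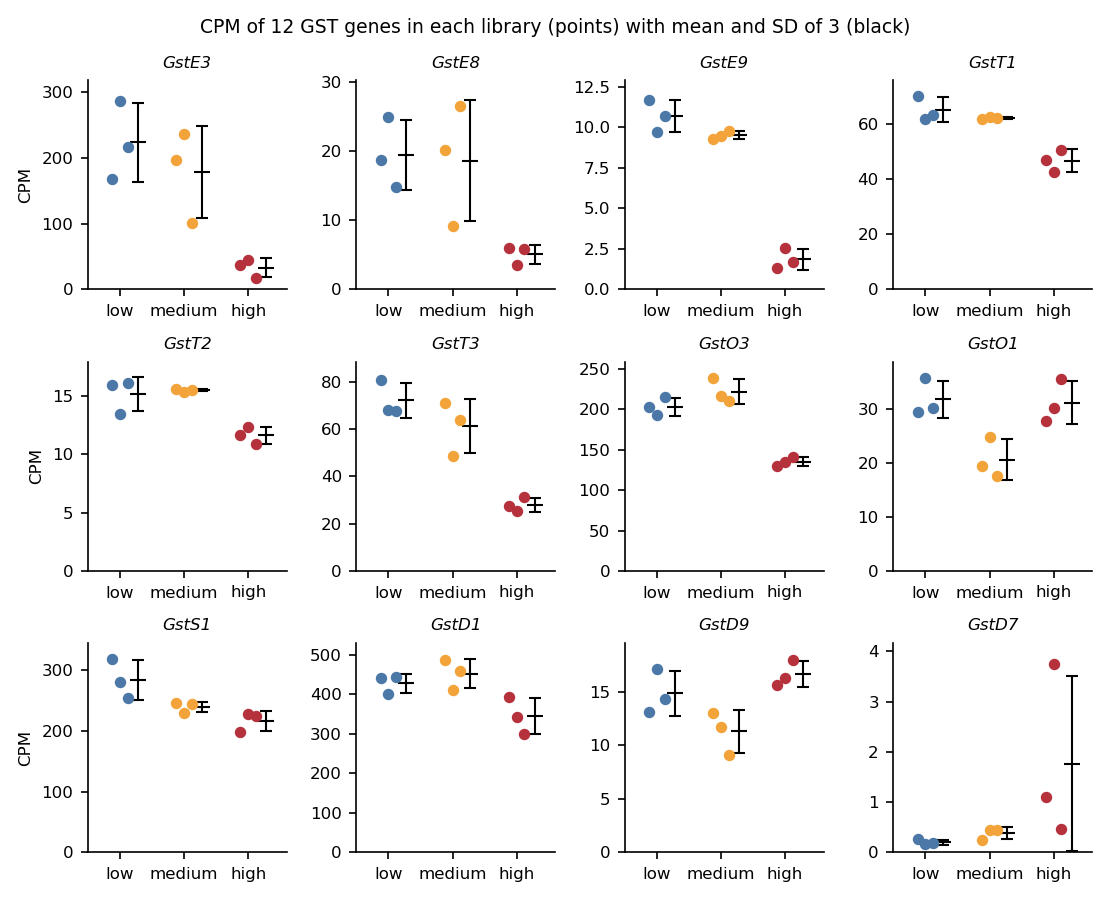
CPM (vertical axes, from 0) of 12 GST genes in every library by larval density (horizontal axes), with the mean and SD of 3 in black. The high libraries lie below all others for GstE3, GstE8, GstE9, GstT1, GstT2, GstT3, GstO3, GstS1 and GstD1, while GstO1 and GstD9 are lowest at medium density and GstD7 is high in high replicate 2 (3.75 CPM).

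Medium density differed little from low density within the family. No GST gene was called by edgeR, where 0% of all tested genes were called. At an unadjusted p under 0.05, 4 of 33 GST genes were lower and none higher at medium density (GstO1, GstD5, GstS1 and GstD9), where 25% of all tested genes passed in either direction. The smallest adjusted p in the family was 0.13 for GstO1, with a log2 fold change of -0.62. DESeq2 called that gene alone in the family (adjusted p 0.0195), where it called 9.95% of all genes with any count, including any it gave no adjusted p. So did edgeR without medium replicate 2 (-0.78, edgeR adjusted p 0.0482), where 8.34% of all tested genes were called. The medium and low libraries did not overlap in 4 of 33 genes (12.1%), beside 40.4% of all tested genes, and the median log2 fold change was -0.01 in the family and 0.02 over all tested genes. The sums of the delta, epsilon, omega, theta and zeta classes overlapped between medium and low.

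Between high and medium density 12 of 33 GST genes were called (36.4%), where 39.6% of all tested genes were called. Of these 9 were lower at high density (27.3%, against 18.3% of all tested genes) and 3 were higher (9.09%, against 21.3%). The lower ones were GstE3, GstE8, GstE9, GstE12, GstT1, GstT2, GstT3, GstO3 and GstD1, and the higher ones were GstO1, GstD7 and GstD9. The median log2 fold change was -0.14, beside 0.01 over all tested genes, and the libraries did not overlap in 45.5% of the GST genes, beside 49.1% of all. With library totals alone 4 GST genes were called higher and 5 lower, where 45.8% of all tested genes were called. The calls of GstE12, GstT1, GstT2 and GstD1 were lost with this scaling. With the roX level as a covariate 4 GST genes were called, GstE3, GstE9, GstT3 and GstO3, all lower, where the share of all tested genes was 7.17%. Leaving out medium replicate 1 or medium replicate 3 gave 7 calls each, with 20.4% and 24.9% of all tested genes. With only these 2 groups in the fit 8 GST genes were called, all lower, with 24.4% of all, and GstE12, GstO1, GstD7 and GstD9 were lost. In the same comparison 4 of 12 midgut markers fell (sums of 1847 to 2875 CPM at medium, and of 1726 to 2398 CPM at high density). So did 3 of 7 fat body markers (60976 to 94973 and 41475 to 65445 CPM) and 2 of 6 hemocyte markers (344 to 527 and 171 to 488 CPM). All 8 salivary gland markers were called, 5 lower and 3 higher (38099 to 46227 and 18534 to 31347 CPM). In the prothoracic gland list 2 of 6 rose and 1 fell, 1 of 10 muscle markers rose (4478 to 7368 and 5397 to 14022 CPM), and no tubule marker passed. The part of these tissues in the GST results was not tested. This comparison shares its high libraries with that of high against low, and the latter shares its low libraries with that of medium against low, so their calls are not independent.

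A joint test of any difference among the 3 densities called 11 of the 33 GST genes (33.3%), where 33.6% of all tested genes were called. The share called was thus near that of all genes, as in high against medium. In high against low, GstE3, GstE9, GstT1, GstT3 and GstO3 were called with each of the 20 alternative settings run, among them every omission of 1 library. In high against medium this held for GstE3, GstE9, GstT3 and GstO3.

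The related lists are small and are to be read beside the 11% of all tested genes that fell and the 4.18% that rose between low and high density. Of 5 tested genes of the glutathione supply list, which holds genes of its synthesis and breakdown, 2 fell and none rose. The median log2 fold change of this list was 0.02, beside 0.06 over all tested genes. Ggt-1, a gamma-glutamyl transpeptidase that breaks glutathione down outside the cell, measured 66.8, 44.0 and 58.4 CPM at low and 24.3, 27.2 and 21.8 CPM at high density, without overlap. It fell by 1.21 ± 0.17 on the log2 scale (edgeR adjusted p 0.00364). Gclc, the catalytic subunit of the rate-limiting enzyme of glutathione synthesis, fell by 0.43 ± 0.11 (edgeR adjusted p 0.0383), a call that was kept without high replicate 3 and lost without any other library (adjusted p 0.0533 to 0.096). Of 3 genes of the Keap1 and CncC pathway 2 fell, Keap1 by 0.41 ± 0.07 (edgeR adjusted p 0.00879) and maf-S, the partner of CncC on DNA, by 0.38 ± 0.08 (edgeR adjusted p 0.0178). The call of maf-S was lost without low replicate 1, 2 or 3 or high replicate 2 (adjusted p 0.0554 to 0.073). Upper-quartile factors, library totals alone and only the 2 groups compared also ended it.

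Among 14 tested enzymes of peroxide and thioredoxin metabolism 5 fell and none rose at high against low density (35.7% called). Catalase (Cat), which breaks down hydrogen peroxide, measured 917, 809 and 876 CPM at low and 523, 477 and 513 CPM at high density, and fell by 0.78 ± 0.09 on the log2 scale (edgeR adjusted p 0.00247). The peroxiredoxins Prx2540-2 (log2 fold change -2.56 ± 0.35, edgeR adjusted p 0.00364) and Prx2540-1 (-2.36 ± 0.33, edgeR adjusted p 0.00404) also fell, but these near-identical copies have fractional counts, so the division of reads between them is uncertain. PHGPx, a glutathione or thioredoxin peroxidase, fell by 0.58 ± 0.11 (edgeR adjusted p 0.00966), and Sod3 was the other gene that fell. Among 7 detoxification genes known to respond to CncC, only the cytochrome P450 gene Cyp6a2 passed. It measured 3.04, 3.02 and 3.52 CPM at low and 42.7, 43.4 and 8.87 CPM at high density, with high replicate 3 far below the other high libraries. Cyp6a2 rose by 3.31 ± 0.63 on the log2 scale (edgeR adjusted p 0.0113), a call lost without low replicate 1 or low replicate 2 (adjusted p 0.0514 to 0.0554).

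The UDP-glycosyltransferases, the other large family that conjugates foreign compounds, had 25 of 35 genes tested. At high against low density 5 of these fell and none rose, a share of 20% beside the 15.2% of all tested genes, and the median log2 fold change was -0.41. Ugt37A3 measured 126, 98.2 and 96.7 CPM at low and 19.3, 15.2 and 30.9 CPM at high density, and fell by 2.29 ± 0.27 on the log2 scale (edgeR adjusted p 0.00255). Ugt301D1 fell by 1.93 ± 0.46 (edgeR adjusted p 0.0271), Ugt37B1 by 2.13 ± 0.54 (edgeR adjusted p 0.0325) and Ugt49B1 by 0.93 ± 0.24 (edgeR adjusted p 0.0333). These 3 calls were each lost without any 1 low library, and without high replicate 1 for Ugt301D1 and Ugt37B1, high replicate 2 for Ugt301D1 and Ugt49B1, medium replicate 3 for Ugt37B1 and Ugt49B1 and medium replicate 1 for Ugt37B1 (adjusted p 0.0505 to 0.121). Ugt303B3 was the other gene that fell.

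Other genes with a GST fold outside the naming rule did not pass between high and low, 0 of 6, with a log2 fold change of 0.00 ± 0.12 for the translation factor eEF1gamma and 0.12 ± 0.11 for the chloride channel protein Clic. Of 3 exporters of glutathione conjugates none passed, with log2 fold changes of 0.16 ± 0.07 for MRP and -0.16 ± 0.18 for Mrp4.

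The last lists hold the pathways in which single GST classes work. In tyrosine breakdown, where the zeta enzymes act, 2 of 5 genes rose and 1 fell at high against low density. The sum of the 5 genes was nevertheless lower, at 252 to 269 CPM at low and 174 to 209 CPM at high density. The gene hgo, the homogentisate dioxygenase whose product the zeta enzymes isomerise, measured 0.30, 0.084 and 0.090 CPM at low and 6.63, 8.12 and 2.90 CPM at high density, and rose by 5.15 ± 0.62 on the log2 scale from a level at or near the floor (edgeR adjusted p 0.00268). Hpd, the enzyme before it, rose by 3.89 ± 0.66 (edgeR adjusted p 0.00779), and Hn, the phenylalanine hydroxylase, fell by 0.87 ± 0.17 (edgeR adjusted p 0.0137), a call lost without low replicate 1 or high replicate 2 (adjusted p 0.0553 to 0.0566). In the drosopterin pathway 1 of 5 genes fell, cl, by 0.34 ± 0.06 (edgeR adjusted p 0.0115), which was lost without low replicate 1 (adjusted p 0.0515). The call of cl was also lost with library totals alone and with only the 2 groups compared. Of 7 genes of ecdysteroid synthesis, the pathway of GstE14, 1 fell, sro, by 0.48 ± 0.12 (edgeR adjusted p 0.0279), a call lost without low replicate 1, 2 or 3 or high replicate 2 (adjusted p 0.0552 to 0.0978). Upper-quartile factors, library totals alone, the replicate block and only the 2 groups compared also ended the call of sro.

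**Figure D5:**
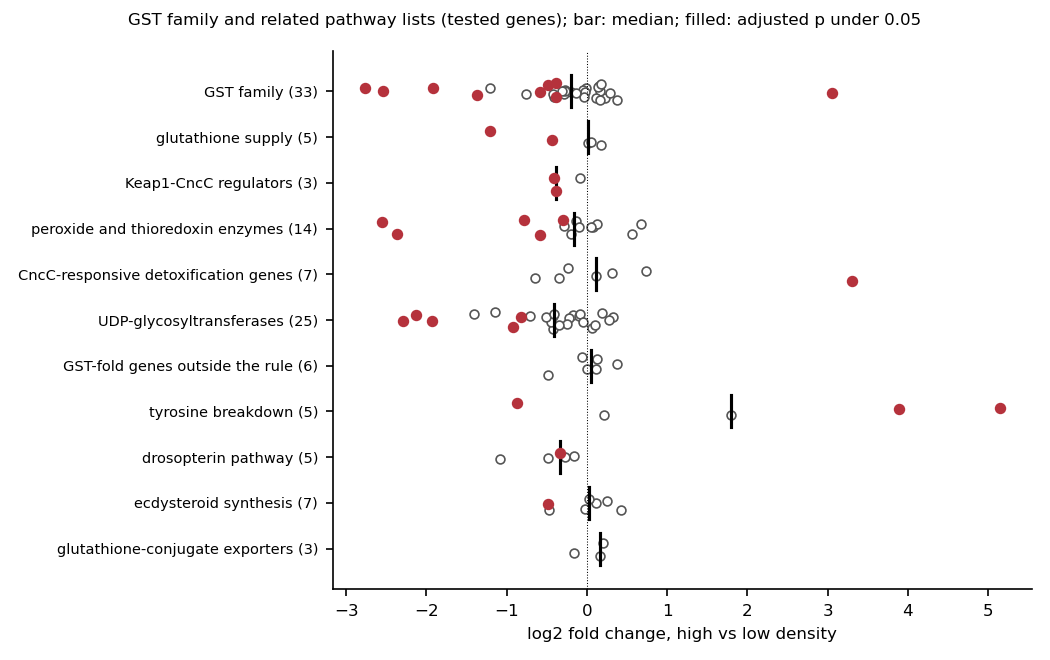
Log2 fold change between high and low density (horizontal axis) for the tested genes of the GST family and of 10 related lists (vertical axis, number of tested genes in brackets; vertical spread within a row is only for legibility). Filled points passed an edgeR adjusted p of 0.05 and bars are list medians; medians below 0 are those of the GST family (-0.20), the UDP-glycosyltransferases (-0.41), the Keap1-CncC regulators (-0.38), the drosopterin pathway (-0.34) and the peroxide and thioredoxin enzymes (-0.17), and hgo and Hpd lie farthest to the right.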

How the data were processed

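Strand-specific Illumina TruSeq mRNA libraries were made from pools of 10 larvae, per the labels' protocols. The deposited table holds expected counts per gene, which the authors made with featureCounts, per the file headers, on reverse-strand read pairs over Release 6 exons, with multi-mapping pairs counted as fractions. As a result 5.06% of the values are not whole to within 0.001, and gene families with near-identical copies share reads. The submitters' processing notes name Trim Galore 0.6.4, HISAT2 2.1.0, SAMtools 1.9, featureCounts 1.6.2, DESeq2 1.26.0, R 3.6.1 and the build dm6. Of the 35 GST genes all 35 lie at the same place in RefSeq's table of the same assembly, and 7 overlap exons of a gene on the other strand, which stranded counting keeps apart.

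Here edgeR 4.0.16 (R 4.3.3) was run on the rounded expected counts (filterByExpr, which kept 12883 genes, TMM factors, quasi-likelihood F-test, 1 coefficient per density, all 9 libraries). P-values were adjusted by Benjamini-Hochberg over all tested genes at a threshold of 0.05. CPM is TMM-scaled, and TPM was computed from the counts and the deposited exon lengths over all genes. The SE of a log2 fold change was taken as its size over the root of F. Class sums and lists were not tested. TMM factors ran from 0.906 to 1.14, and replicate pairs differed beyond sampling noise (chi-square per degree of freedom 16.2 to 185.3, genes with at least 20 summed counts). Floors cover counting error only. The tests were also run on simulated counts with the same spread at every density. The spread in these data was larger at high density, so that run did not check the calls for unequal spread.

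Full values are given for members called in any pair of densities, the 2 most abundant members of each class, and GstD1, GstS1, GstE14, GstZ2 and GstO1. In each related list fold changes are given for at most 4 called genes by p-value, or the 2 most abundant. Library values are given for some of these. The members and lists were chosen with earlier results of these data known. The alternatives were library totals alone, upper-quartile or RLE factors, a minimum of 10 counts per library or no filter, DESeq2 1.42.0, limma 3.58.1 voom, only the 2 groups compared, a replicate block, a roX covariate, only genes with whole counts, and leaving out each library. Of the tubule markers 3 matched no symbol. Sequences are not shown.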

Additional observations from a re-analysis of the deposited data

How the results depend on the processing

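Counts of called GST genes are given with the share of all tested genes called in the same fit. Between high and low 9 were called (15.2%), and between 5 and 9 without single libraries (6.16% to 21.2%; 5 without high replicate 2). Between medium and low none was called (0%), with 1 by DESeq2 (9.95% of all genes with any count) and 0 to 1 without single libraries (1 without medium replicate 2, 8.34%). Between high and medium 12 were called (39.6%), with 4 under the roX covariate (7.17%) and 7 to 12 without single libraries (20.4% to 41.7%). In the joint test 11 were called (33.6%), with 6 under the roX covariate (11.6%) and 5 to 11 without single libraries (7.6% to 37%). With library totals alone the median over all genes (log2 fold change) moved by 0.15 for high against low, 0.25 for high against medium and -0.10 for medium against low. Under them the log2 ratios of class sums for high against low were -0.12 for delta, -0.22 for omega, -0.24 for sigma and 0.25 for zeta. For high against medium they were -0.0749 for delta, -0.16 for omega, -0.0794 for theta, 0.25 for zeta and 0.11 for sigma, whose sign turned. For medium against low they were -0.0465 for delta and -0.0530 for omega, and both turned sign. With upper-quartile factors omega gave -0.28 and zeta 0.19 for high against low, and omega -0.31 and sigma -0.0466 for high against medium. In high against medium, library totals alone also turned Clic (0.24), cl (0.0624) and MRP (0.22). The cause of these changes was not tested.

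Replicate numbers did not pair the libraries: same-numbered libraries correlated in their deviations from group means between -0.34 and 0.28, and 3 of 9 libraries correlated best with their own number. With the replicate block 6, 0, 12 and 8 GST genes were called in high against low, medium against low, high against medium and the joint test, with 10.9%, 0%, 36% and 23.9% of all tested genes.

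No called GST gene turned direction in any alternative. The 9 calls of high against low were kept in 141 of 178 alternative values and lost in 37, and the 12 of high against medium were kept in 197 of 239 and lost in 42. Values that passed neither way changed sign 30, 38 and 26 times in high against low, medium against low and high against medium. The lowest count in a library was 2 for GstD6, 4 for GstD7, 5 for GstE10 and 8 for GstD8, so depth adds to the error of these genes.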
